A study of Homo sapiens with 6 samples.

Results

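Homozygous and hemizygous S1344L Dicer were compared in the established human embryonic stem cell line H1. All 16199 genes of the count table entered the comparison, in 4 of the 6 libraries of the series. Dicer had been altered by CRISPR-Cas9 so that cells carried the cancer-associated S1344L substitution in the homozygous state (written pm/pm in the protocol, 2 libraries) or the hemizygous state (pm/fs, 2 libraries). The other 2 libraries came from wild-type cells, whose mean also entered the model and whose values stand beside the results for reference. Cells of all genotypes had grown for 10 days without doxycycline, and the labels do not say what doxycycline controlled. Each sample came from 2 dishes of 15 cm, irradiated at 254 nm with 150 mJ/cm2, which was done 2 times. The labels give neither the number of clones per genotype nor whether its libraries stem from different cultures. A p-value here reflects no more than how these libraries vary, and that variation may be technical. Counts come from RNA crosslinked to Ago2 (iCLIP), so a value is the level of a gene's RNA in the Ago2 pull-down and depends both on how much of that RNA a cell holds and on how much of it is bound.

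Dicer, an RNase III enzyme, releases microRNAs from hairpin precursors. Its RNase IIIa and IIIb domains each cut a strand, which sets the end of the 3p and of the 5p arm. The mature arm is loaded into an Argonaute such as Ago2, and bases 2 to 8 of it, the seed, pair with target RNAs. Human embryonic stem cells are known for the miR-302 family and the miR-17 family, while let-7 is held low in them by LIN28 and rises on differentiation. A cell that is homozygous for S1344L holds the altered enzyme from both alleles, and a hemizygous cell from a single allele, so the comparison asks whether the dose of the altered enzyme shows in the Ago2-bound RNA.

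Target lists of 4 seed families are described further on, and a member of each family is printed here to show how the families differ in the bases that pair. Sequences are from RefSeq (GRCh38.p14), 5′ to 3′, with the seed in capitals.
hsa-let-7a-5p: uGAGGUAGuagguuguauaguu
hsa-miR-17-5p: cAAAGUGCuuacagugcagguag
hsa-miR-302a-3p: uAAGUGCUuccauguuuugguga
hsa-miR-92a-3p: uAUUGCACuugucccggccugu

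The let-7 seed is shared by 11 human mature microRNAs of that table, the miR-302 seed by 12, the miR-17 seed by 8 and the miR-92a seed by 6. The miR-17 and miR-302 seeds both hold AAGUGC, shifted by 1 base.

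Libraries held 39.7 M and 51.6 M counts for hemizygous, 46.2 M and 39.6 M for homozygous and 52.9 M and 38.2 M for wild-type replicates 1 and 2. Levels are given as CPM, the counts of a gene per 1e6 counts of the library after scaling with TMM factors, and differences as log2 of homozygous over hemizygous. Among the mutant libraries, replicate 1 of the hemizygous cells stood apart. Across genes, its log2 CPM correlated with hemizygous replicate 2 at Pearson's r = 0.979 and with homozygous replicate 1 at 0.985, whereas hemizygous replicate 2 correlated with homozygous replicate 2 at 0.994. Genes are not independent replicates, and these values describe the libraries. On the first principal component, which held 59.1% of the variance, hemizygous replicate 1 lay at -39.8 and wild-type replicate 1 at -34.48, homozygous replicate 1 at 3.15, and the 3 libraries numbered 2 between 20.58 and 28.52. The component therefore did not separate the genotypes.

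All 11 embryonic stem cell markers were measured in every library, and their summed level was 12139 and 11051 CPM in hemizygous, 11271 and 10695 in homozygous and 10640 and 10234 in wild-type libraries. POU5F1, the pluripotency factor OCT4, stood at 84.4 and 128 CPM in hemizygous and 107 and 129 in homozygous libraries, and SOX2, its partner, at 353 and 419 against 374 and 412. The genotypes overlapped for both genes. Among the other cell types, 3 of 10 mesendoderm markers, 2 of 8 trophoblast and amnion markers, 7 of 10 fibroblast and stromal markers and 8 of 12 neuroectoderm markers were measured. TBXT, EOMES and SOX17 of mesendoderm, CGA and GATA3 of trophoblast, COL3A1 and DCN of stroma, and PAX6 and SOX1 of neuroectoderm were not analysed here.

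No gene passed the test between the mutant genotypes. At an adjusted p under 0.05, the quasi-likelihood test of edgeR called 0 genes of 16199 (0%). Before adjustment 124 (0.765%) had a p under 0.05, of which 65 were higher in homozygous cells (0.401%) and 59 lower (0.364%). limma-voom called 0, limma-voom with sample quality weights 1 (0.00617%), ASMTL, and DESeq2 10 (0.0617%). Without hemizygous replicate 1 edgeR called 3 genes (0.0185%), ASMTL, ITPK1 and ZNF560, with 72 at an unadjusted p under 0.05, and without hemizygous replicate 2 it called 0, with 1348. In simulated counts for this comparison, edgeR found 33% of the genes given a log2 change of 1 and 93% of those given 2, and called 20 unchanged genes. The simulation had no variation shared by same-numbered libraries and changed no genes with the fewest counts. Its shares therefore need not hold for these data, in which edgeR called neither ASMTL (-4.30) nor REC8 (5.23). The 2 homozygous libraries lay above both hemizygous ones for 1786 genes (11%) and below both for 1679 (10.4%), 3465 in all (21.4%). These shares are the background for every count of genes without overlap given for a gene group.

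Same-numbered libraries differed more in replicate 1 than in replicate 2. The SD of the log2 differences over all genes was 0.446 in replicate 1 and 0.257 in replicate 2, and the differences of the 2 numbers correlated across genes at r = 0.176. Past a difference of 1, which is 2-fold, there were 298 genes higher and 288 lower in homozygous for replicate 1, and 72 and 42 for replicate 2. In both numbers 23 genes were higher by more than 1 (0.142%) and 9 lower (0.0556%), and 7 were past 1 in opposite directions. Most of these genes had few counts, and only 2 of the 23 and 4 of the 9 reached a mean of 5 CPM over the 4 libraries. ASMTL, REC8, MOAP1, ZNF492, ZNF849P and FAM3C2P lead this group, and the plot of the same-numbered differences shows them away from the cloud around 0.

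**Figure D1:**
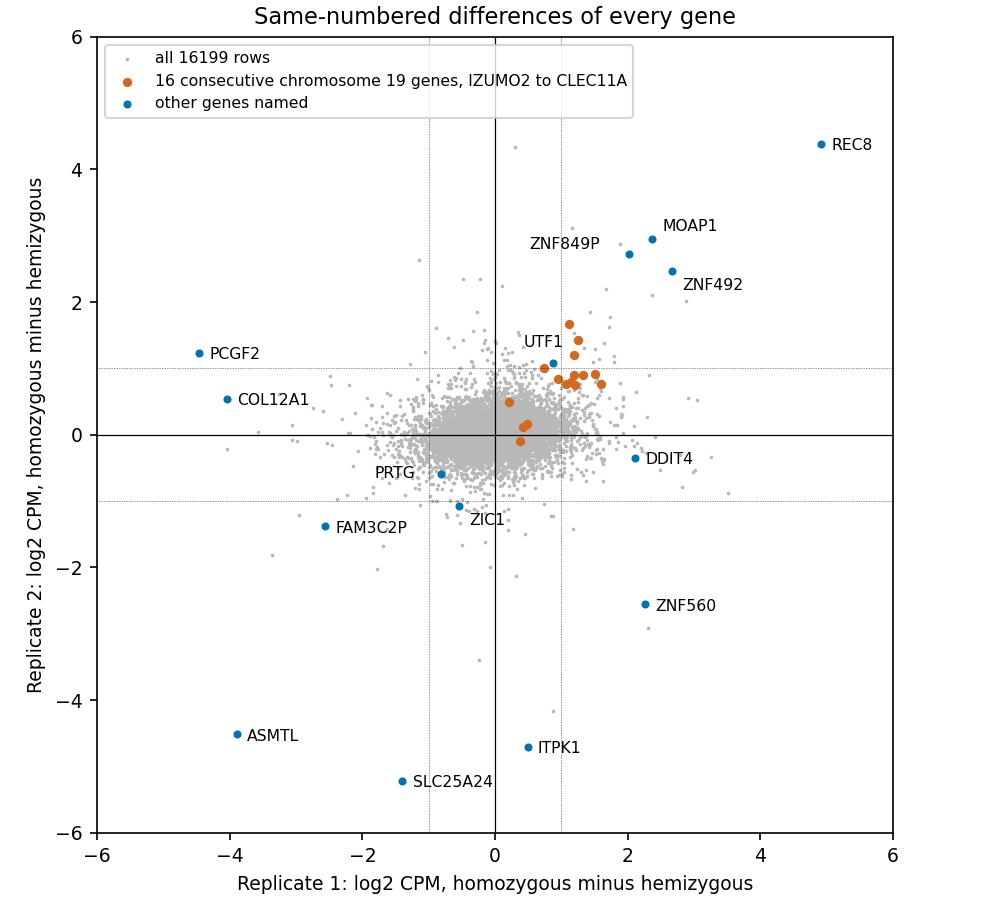
Difference in log2 CPM between homozygous and hemizygous libraries of replicate 1 (horizontal axis) and replicate 2 (vertical axis) for all 16199 genes, each point a gene. Orange points are 16 consecutive genes of chromosome 19, blue points other named genes, and dotted lines mark a difference of 1; REC8 lies at 4.91 and 4.39, ASMTL at -3.90 and -4.52, while PCGF2 lies at -4.47 and 1.24, opposite in sign.

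The gene with the smallest p was ASMTL. It lies in the first pseudoautosomal region (X:1403139-1453756 in GRCh38.p14) and encodes a protein related to the last enzyme of melatonin synthesis. ASMTL stood at 12.1 and 17.3 CPM (464 and 912 reads) in the hemizygous libraries, 0.771 and 0.714 CPM (35 and 29 reads) in the homozygous and 1.00 and 0.793 CPM in the wild-type. Both hemizygous libraries were high, and homozygous and wild-type libraries were low together. The log2 fold change was -4.30 (SE 0.30), and the same-numbered differences were -3.90 and -4.52. edgeR's adjusted p was 0.0515, just above the threshold. DESeq2 gave 2.48e-30 and limma-voom 0.114. edgeR gave 0.00849 without hemizygous replicate 1, but 0.968 and 0.872 without homozygous replicates 1 and 2. ASMTL overlaps the antisense gene ASMTL-AS1, and since the use of strand in counting is not given, reads of the 2 cannot be told apart.

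Other measured genes of the region did not form a common pattern over both replicate numbers. PLCXD1, a phospholipase-like protein, stood at 6.83 and 10.6 CPM in hemizygous, 5.09 and 5.22 in homozygous and 4.47 and 5.73 in wild-type libraries, and its log2 fold change was -0.76 (SE 0.28, adjusted p = 0.999 by edgeR). Its genotypes did not overlap and the hemizygous libraries were again the high ones. GTPBP6, a GTP-binding protein, was at 0.782 and 1.08 against 9.39 and 0.566 CPM, high in homozygous replicate 1 alone. SLC25A6, the mitochondrial ADP/ATP carrier that lies next to ASMTL among measured genes, was at 2.27 and 3.53 against 2.49 and 2.12 CPM, with overlap. CD99, a surface glycoprotein on the other side, was at 3.62 and 1.08 against 4.14 and 0.418 CPM in the mutants and 8.43 and 10.8 in wild-type. Of 15 genes listed for the region, 5 were measured, ASMTL among them. In replicate 2 all 5 were below 0, against 53.6% of all genes, with a median of -1.02. In replicate 1, 2 of the 5 were below 0, against 49.3% of all genes, with a median of 0.13.

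The 250 bases upstream of the ASMTL start are printed because of this rank by p, with every CG in capitals (chrX:1453757-1454006, minus strand, GRCh38.p14, RefSeq).
ASMTL: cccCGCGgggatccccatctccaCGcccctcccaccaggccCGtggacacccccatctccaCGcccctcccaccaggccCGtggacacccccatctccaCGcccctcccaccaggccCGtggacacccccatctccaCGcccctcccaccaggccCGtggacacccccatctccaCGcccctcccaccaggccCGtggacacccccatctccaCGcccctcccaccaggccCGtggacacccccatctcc
This stretch holds 14 CG dinucleotides, and 44.7% of 27305 RefSeq promoters of the same length hold at least as many. It is a tandem repeat with a period of 38 bases: 97.6% of positions equal the base 38 positions further on, against a median of 27.8% over all those promoters.

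Several genes were nearly without reads in the hemizygous libraries. REC8, a cohesin subunit that holds sister chromatids together in meiosis (14:24172080-24180923), stood at 0.130 and 0.0759 CPM in hemizygous, 5.22 and 2.49 in homozygous and 0.501 and 1.82 in wild-type libraries. The hemizygous values rest on 5 and 4 reads, the homozygous on 237 and 101. Homozygous and hemizygous libraries were far apart, with a log2 fold change of 5.23 (SE 0.83) and an adjusted p of 0.999 by edgeR and 1.84e-06 by DESeq2. REC8 overlaps IPO4, an importin gene.

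The cohesin genes that act in every dividing cell gave small values. RAD21, the mitotic counterpart of REC8, was at 372 and 360 CPM in hemizygous and 394 and 330 in homozygous libraries (log2 fold change -0.02, SE 0.14). STAG3, a meiotic partner of REC8, was at 15.4 and 25.6 against 20.9 and 26.2 CPM (0.20, SE 0.30). Of 15 measured cohesin genes, 3 had a log2 fold change above 0, against 49.9% of all genes, and the median was -0.09. PSME2, a subunit of the PA28 activator of the immunoproteasome and the nearest measured gene before REC8, went the opposite way to it. PSME2 was at 12.4 and 14.2 CPM in hemizygous, 2.60 and 7.56 in homozygous and 9.60 and 9.21 in wild-type libraries (-1.39, SE 0.45, edgeR's adjusted p = 0.999), with -2.35 and -0.82 when homozygous replicate 2 or 1 was left out.

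MOAP1, a binding partner of BAX that promotes apoptosis (14:93182199-93184897), stood at 0.130 and 0.0949 CPM (5 and 5 reads) in hemizygous, 0.859 and 1.03 CPM (39 and 42 reads) in homozygous and 1.72 and 1.84 CPM in wild-type libraries. The 3 genotypes were ordered without overlap. The log2 fold change between mutants was 3.06 (SE 0.39), with an adjusted p of 0.935 by edgeR and 0.0108 by DESeq2. The measured gene before it, the inositol phosphate kinase ITPK1, was at 0.913 and 28.0 against 1.30 and 1.03 CPM, high in hemizygous replicate 2 alone (-3.63, SE 1.30). GOLGA5, a Golgi protein further before, and DDX24, an RNA helicase after it, had -0.11 (SE 0.15) and -0.07 (SE 0.23). Of 18 measured genes of the BCL2 family and its partners, 11 were above 0 with a median of 0.07, and 1 was without overlap.

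ZNF492 and the pseudogene ZNF849P lie next to each other among measured genes of chromosome 19 (22634324-22667671 and 22685183-22686524) and belong to the zinc finger clusters that hold many KRAB repressors. ZNF492 stood at 0.365 and 0.323 CPM in hemizygous, 2.56 and 1.99 in homozygous and 2.28 and 1.30 in wild-type libraries. ZNF849P stood at 0.156 and 0.114 CPM in hemizygous, 0.771 and 1.01 in homozygous and 1.18 and 0.640 in wild-type libraries. For both, the hemizygous libraries alone were low. The log2 fold changes were 2.72 (SE 0.40) and 2.72 (SE 0.49), and DESeq2's adjusted p was 0.000938 for ZNF492 and 0.341 for ZNF849P. ZNF43 and ZNF730 on either side had -0.10 (SE 0.13) and -0.04 (SE 0.14). Members of this family are similar in sequence, so counts may be shared between copies. Of 463 measured genes named ZNF, 267 were above 0 (57.7%, against 49.9% of all genes), with a median of 0.03. Without overlap 75 lay above the hemizygous libraries (16.2%, against 11% of all genes) and 26 below (5.62%, against 10.4%). The median was 0.07 in replicate 1 and -0.01 in replicate 2.

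**Figure D2:**
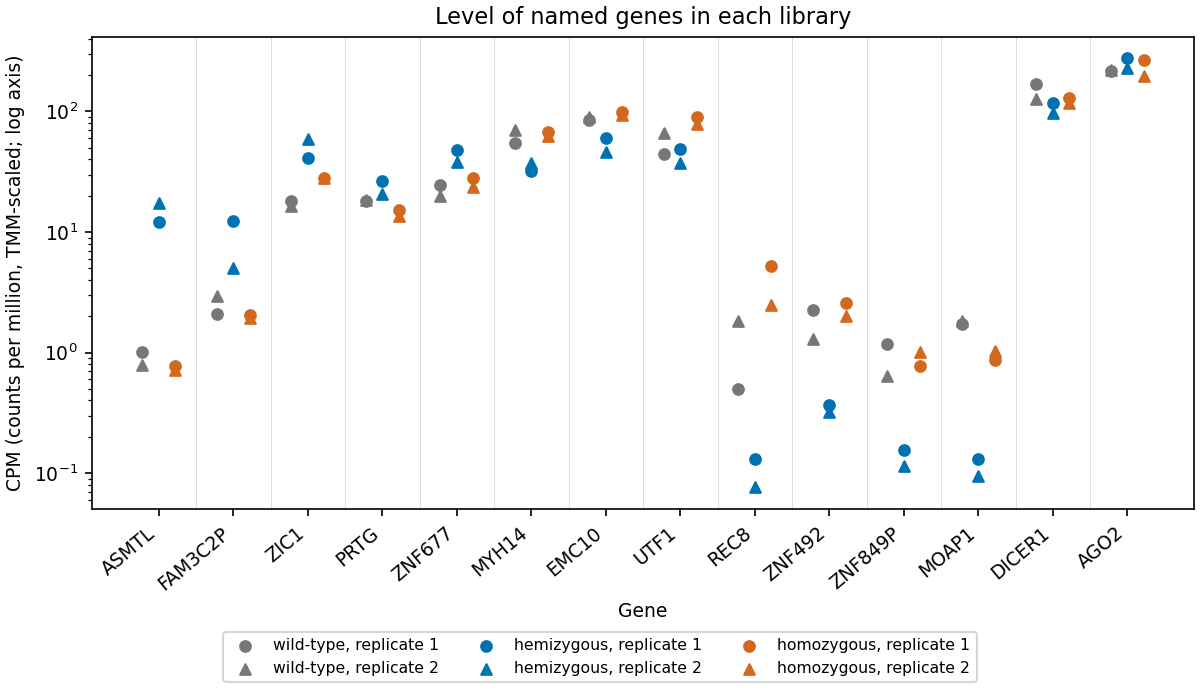
Level of 14 named genes in each of the 6 libraries as CPM on a log axis, with colour for genotype, circles for replicate 1 and triangles for replicate 2. ASMTL sits at 12.1 and 17.3 CPM in hemizygous and under 1.01 in all other libraries, MOAP1 at 0.130 and 0.0949 in hemizygous, and the genotypes overlap for DICER1 and AGO2.

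MYH14 and EMC10 were the genes with the most reads among those DESeq2 called. MYH14 encodes nonmuscle myosin heavy chain IIC. It stood at 31.8 and 37.1 CPM in hemizygous, 67.1 and 63.2 in homozygous and 54.5 and 70.6 in wild-type libraries. Its log2 fold change was 0.92 (SE 0.17), with an adjusted p of 0.999 by edgeR and 0.0181 by DESeq2. EMC10, a subunit of the complex that inserts membrane proteins in the endoplasmic reticulum, stood at 59.8 and 46.0 against 99.5 and 92.8 CPM and at 84.8 and 89.2 in wild-type (0.86, SE 0.16, adjusted p of 0.999 and 0.0181). Leaving out any library kept the log2 fold change between 0.81 and 1.04 for MYH14 and between 0.68 and 1.06 for EMC10. In both genes the hemizygous libraries were the low ones, and wild-type lay near homozygous.

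MYH14 and EMC10 lie 272.9 kb apart on chromosome 19, and genes between and around them had the same pattern. The stretch runs from IZUMO2 to CLEC11A (19:50152548-50725708, 573.2 kb) and holds 16 measured genes. Its bounds were chosen after the values were seen, so the counts within it are descriptions. Of the 16 genes, 15 lay above the hemizygous libraries without overlap, against 11% of all genes. By edgeR 9 had an unadjusted p under 0.05, against 0.765% of all genes. Among them are SYT3, a synaptotagmin (3.23 and 4.55 against 7.20 and 7.95 CPM), and CLEC11A, a secreted lectin (1.77 and 3.23 against 4.10 and 7.46). Their log2 fold changes were 0.96 (SE 0.33) and 1.20 (SE 0.45), neither called by edgeR. The median over the 16 genes was 0.958, and it was 1.13 in replicate 1 and 0.816 in replicate 2.

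Within the stretch 4 adjacent genes were closer to 0. NR1H2, the liver X receptor beta, was at 44.8 and 59.6 CPM in hemizygous, 62.3 and 66.8 in homozygous and 37.5 and 43.9 in wild-type libraries (0.31, SE 0.18). POLD1, the catalytic subunit of DNA polymerase delta, was at 75.1 and 85.9 against 97.4 and 80.8 CPM (0.15, SE 0.16), with overlap. SPIB, an ETS factor, and MYBPC2, a myosin-binding protein, had 0.35 (SE 0.29) and 0.26 (SE 0.28). The remaining 12 genes, set apart by these values, ranged from 0.861 to 1.5 with a median of 1.05. Wild-type lay above hemizygous in 14 of the 16 genes, with a log2 median of 0.864 over the 16, 0.975 over the 12 and -0.0681 over the 4. The median of homozygous over wild-type was 0.11 over the 16, 0.0786 over the 12 and 0.367 over the 4. These comparisons share libraries and are given as levels beside each other.

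The bounds of the stretch follow the values, so its contrast with the genes around it is a description. The 4 measured genes before IZUMO2 and the 4 after CLEC11A ranged from -0.117 to 0.157 with a median of 0.0175. None lay above the hemizygous libraries without overlap. VRK3 lay below them, at 22.4 and 22.1 against 20.7 and 21.9 CPM (-0.07, SE 0.13). ZNF473, the last gene before, was at 12.5 and 10.6 CPM in hemizygous and 12.1 and 11.1 in homozygous libraries. Over 12871 windows of 7 consecutive genes with at least 2 CPM, 8 had medians past 0.5 in the same direction in both replicate numbers, and all 8 touched this stretch. The next largest window, from CFAP410 to TSPEAR-AS2 on chromosome 21, reached 0.417 in the lesser of the 2 numbers. Of the 15 higher genes with the smallest p, 5 lay on chromosome 19, which holds 7.28% of placed genes. MYH14, EMC10 and NAPSA lay in the stretch, and ZNF492 and ZNF849P are neighbours, so the 5 are not separate places. Genes of chromosome 19 with at least 5 CPM had a median of 0.10, with 0.23 in replicate 1 and -0.02 in replicate 2. Some of the 16 genes overlap each other, such as EMC10 with GARIN5A and SYT3 with C19orf81, so their counts are not separate with certainty.

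**Figure D3:**
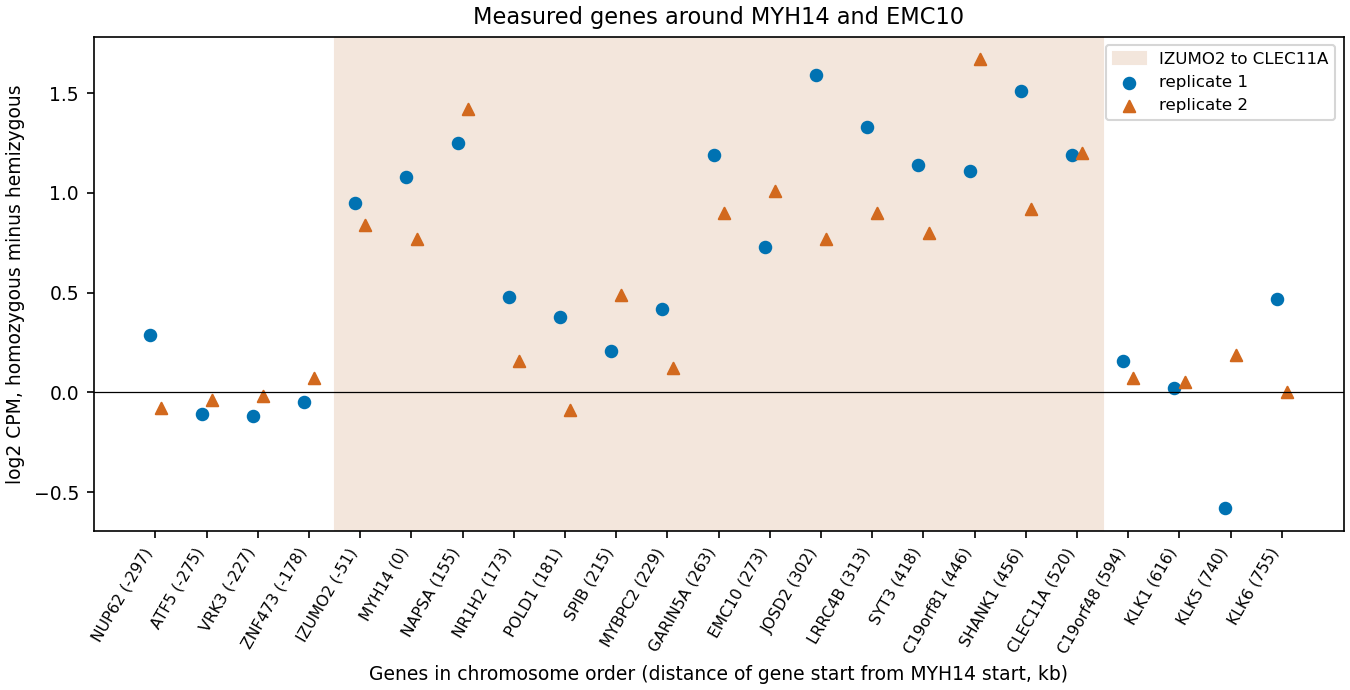
Difference in log2 CPM between homozygous and hemizygous libraries (vertical axis) for measured genes in chromosome order around MYH14 (horizontal axis, with the distance of each gene start from the MYH14 start in kb), circles for replicate 1 and triangles for replicate 2. In the shaded stretch, of which 15 of the 16 genes are drawn, the medians over all 16 are 1.13 and 0.816, with NR1H2, POLD1, SPIB and MYBPC2 lower, and the 8 genes outside have a median of 0.0175 over the model.

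The 250 bases upstream of the MYH14 and EMC10 starts are printed because these genes lead the stretch. Every CG is in capitals, and both are on the plus strand of GRCh38.p14, as given by RefSeq (chr19:50203372-50203621 and chr19:50476257-50476506).
MYH14: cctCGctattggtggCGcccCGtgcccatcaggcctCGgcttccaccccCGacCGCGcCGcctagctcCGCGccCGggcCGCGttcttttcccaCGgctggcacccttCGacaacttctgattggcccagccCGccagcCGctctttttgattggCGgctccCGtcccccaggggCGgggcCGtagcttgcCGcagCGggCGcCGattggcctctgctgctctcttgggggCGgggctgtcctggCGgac
EMC10: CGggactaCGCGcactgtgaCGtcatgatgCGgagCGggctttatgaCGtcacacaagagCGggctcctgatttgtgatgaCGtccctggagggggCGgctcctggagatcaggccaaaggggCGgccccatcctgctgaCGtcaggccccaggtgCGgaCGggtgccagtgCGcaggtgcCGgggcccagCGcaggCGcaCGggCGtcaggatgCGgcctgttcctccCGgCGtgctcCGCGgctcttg
They hold 27 and 25 CG dinucleotides, and 17.3% and 21.3% of the 27305 promoters hold at least as many. G or C made up 71.6% and 68.8% of their bases. Of the 15 higher genes with the smallest p, 11 had a promoter in the table and 6 of these held at least its median of 21. Of the 15 lower genes, 13 had a promoter and 5 held at least 21.

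Paralogues and partners of MYH14 did not share its difference. MYH9 and MYH10, nonmuscle myosin heavy chains IIA and IIB, were at 693 and 763 against 774 and 665 CPM (-0.02, SE 0.20) and at 622 and 517 against 610 and 446 CPM (-0.11, SE 0.19). MYLK, the kinase that activates myosin light chains, was at 64.2 and 50.2 against 46.3 and 44.3 CPM (-0.34, SE 0.16). Of 17 measured genes of the group, 7 were above 0 and the median was -0.03.

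Most measured neuroectoderm markers stood lower in the homozygous libraries, though edgeR called none of them. ZIC1, a zinc finger transcription factor active in the early neural plate (3:147409365-147416719), was at 41.0 and 58.9 CPM in hemizygous, 28.2 and 28.0 in homozygous and 17.9 and 16.3 in wild-type libraries. The 3 genotypes did not overlap, with homozygous between the other 2. The log2 fold change was -0.83 (SE 0.19, adjusted p = 0.999 by edgeR), and the same-numbered differences were -0.54 and -1.07. ZIC4, the neighbouring gene that faces it, was at 3.02 and 3.28 CPM in hemizygous, 1.34 and 2.34 in homozygous and 1.29 and 1.59 in wild-type libraries (-0.78, SE 0.34). The order of genotypes was the same as for ZIC1, with overlap between homozygous and wild-type.

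Of 8 measured neuroectoderm markers, 7 were below 0, against 50.1% of all genes. Without overlap 5 lay below the hemizygous libraries, against 10.4% of all genes. The 5 include ZIC1, which was already named for its small p. The median of the list was -0.27, with -0.42 in replicate 1 and -0.11 in replicate 2. NES, the intermediate filament nestin of neural progenitors, was at 515 and 400 CPM in hemizygous and 386 and 371 in homozygous libraries (-0.27, SE 0.16). MAP2, a neuronal microtubule protein, was at 9.78 and 6.95 against 5.31 and 5.27 CPM (-0.66, SE 0.27). Leaving out any of the 6 libraries kept the median between -0.35 and -0.19. FABP7, the fatty acid binding protein of radial glia, was the exception at 4.22 and 5.81 against 5.62 and 8.15 CPM (0.45, SE 0.28). The summed level of the 8 markers was 1016 and 956 CPM in hemizygous, 811 and 885 in homozygous and 919 and 938 in wild-type libraries. In bulk libraries, fewer cells of a type and less RNA per cell cannot be told apart.

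Within each replicate number, targets of let-7 were on balance lower in homozygous cells, but the labels do not say that these numbers pair libraries. The genotypes overlapped in the median of the targets relative to the mean of the 4 mutant libraries. It was 0.14 and -0.05 in hemizygous and 0.03 and -0.14 in homozygous replicates 1 and 2. The summed level of the targets was 9885 and 9758 CPM in hemizygous and 10394 and 8970 in homozygous libraries. Of 33 measured targets in the list, 24 had a log2 fold change below 0, against 50.1% of all genes, and the median was -0.12 against -0.00 for all genes. In replicate 2, 29 of the 33 were below 0, against 53.6% of all genes, and in replicate 1, 23 were, against 49.3%, with a median of -0.10 in each. None lay above the hemizygous libraries without overlap and 6 lay below, against 11% and 10.4% of all genes. PRTG, an immunoglobulin superfamily protein of the early embryo whose low value was known when the list was made, stood at 26.6 and 20.6 CPM in hemizygous, 15.1 and 13.6 in homozygous and 18.2 and 18.5 in wild-type libraries (-0.71, SE 0.17). Without it the median was -0.11.

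The other let-7 targets without overlap had smaller differences. HMGA2, a chromatin protein and a classical let-7 target, was at 233 and 211 against 188 and 189 CPM (-0.23, SE 0.12). IGF2BP3, an RNA-binding protein of fetal tissue, was at 445 and 408 against 354 and 346 CPM (-0.28, SE 0.13). CDK6, the cyclin D kinase, was at 94.2 and 89.1 against 81.8 and 77.8 CPM (-0.20, SE 0.15). Homozygous libraries were the low ones for all 3, and none passed edgeR's test (adjusted p = 0.999). Others overlapped, such as TRIM71 (-0.06, SE 0.14), a let-7 target of stem cells, and HMGA1 (0.10, SE 0.17). Without hemizygous replicate 1 the median of the list was 0.01 and without homozygous replicate 2 it was -0.05.

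Targets of the other families had medians nearer 0 or rested on replicate 1. For miR-302, 7 of 17 measured targets were above 0 with a median of -0.02, and LATS2, a Hippo kinase, was at 36.3 and 42.0 against 45.1 and 38.2 CPM. For miR-17, 5 of 16 were above 0 with a median of -0.05, and CDKN1A, the cell cycle inhibitor p21, was at 75.7 and 45.0 against 32.8 and 46.2 CPM, high in hemizygous replicate 1. For miR-92 and miR-25, 1 of 8 was above 0, and the median was -0.45 in replicate 1 and -0.02 in replicate 2. Neither the miR-17 nor the miR-302 list had a member without overlap between the genotypes.

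DICER1 itself did not separate the genotypes. It stood at 118 and 96.4 CPM in hemizygous, 129 and 118 in homozygous and 169 and 126 in wild-type libraries, with a log2 fold change of 0.20 (SE 0.19, adjusted p = 0.999 by edgeR). The same-numbered differences of DICER1 were 0.12 and 0.29, and leaving out a library kept its log2 fold change between 0.06 and 0.36. These levels do not check the genotype labels, since allele sequences were not analysed here. AGO2, the protein pulled down, was at 277 and 231 CPM in hemizygous and 268 and 199 in homozygous libraries (-0.12, SE 0.18). Of 22 genes of the microRNA machinery, 14 were above 0 and the median was 0.03, with 3 without overlap above and 2 below. ZSWIM8, the adaptor of a ligase that degrades Argonaute bound to certain targets, was at 28.4 and 32.4 against 40.1 and 33.7 CPM (0.28, SE 0.15). LIN28B, which blocks let-7 maturation, was at 274 and 182 against 209 and 165 CPM (-0.28, SE 0.25). Of 20 microRNA host genes, 10 were above 0. MIR4458HG, which carries a microRNA with the let-7 seed, was at 0.156 and 0.380 CPM (6 and 20 reads) in hemizygous, 0.463 and 1.01 CPM (21 and 41 reads) in homozygous and 3.70 and 3.48 CPM in wild-type libraries. Its log2 fold change was 1.39 (SE 0.54), from 0.74 to 2.20 when a library was left out.

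Among the other lower genes with the smallest p, FAM3C2P, a pseudogene of a secreted protein, stood at 12.3 and 5.07 CPM in hemizygous, 2.05 and 1.92 in homozygous and 2.10 and 2.94 in wild-type libraries. Only the hemizygous libraries were high (-2.13, SE 0.45, DESeq2's adjusted p = 0.0103), and without hemizygous replicate 1 the difference was -1.35. ZNF677, a zinc finger protein, was at 47.5 and 38.4 against 27.9 and 23.5 CPM and at 24.8 and 20.0 in wild-type (-0.74, SE 0.18). For other genes the homozygous libraries were the low ones. EGFR, the epidermal growth factor receptor, was at 10.4 and 9.26 CPM in hemizygous, 6.90 and 6.87 in homozygous and 10.6 and 10.5 in wild-type libraries (-0.51, SE 0.18). MAOA, which breaks down monoamines, was at 16.4 and 16.2, 11.7 and 12.0, and 16.3 and 14.4 CPM (-0.46, SE 0.15). PLEKHA6, a pleckstrin homology protein, was at 29.9 and 28.2, 21.6 and 21.9, and 28.1 and 29.6 CPM (-0.42, SE 0.13).

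For these 3 genes hemizygous and wild-type lay together. SLC25A26, the mitochondrial carrier of S-adenosylmethionine, was at 8.53 and 13.8 against 0.793 and 3.89 CPM (-2.26, SE 0.66), and its difference was -3.81 without homozygous replicate 2. SMN2, which has the near-identical copy SMN1 so that its counts are uncertain, was at 0.860 and 0.436 against 0.220 and 0.0739 CPM (-2.07, SE 0.61). ALPK3, PCLAF and CDIP1 had -0.63, -0.70 and -0.75, with -0.36 for ALPK3 without hemizygous replicate 1. Of the 15 lower genes, 14 were protein coding and 1 had means under 5 CPM in both genotypes.

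Among the other higher genes outside chromosome 19 was a stem cell factor. UTF1, a chromatin-associated factor of undifferentiated embryonic cells, stood at 49.1 and 37.4 CPM in hemizygous, 90.0 and 78.9 in homozygous and 44.6 and 66.6 in wild-type libraries. Homozygous libraries were the high ones (0.97, SE 0.23, edgeR's adjusted p = 0.999). TAF10, a TFIID subunit, was at 6.96 and 5.20 against 10.2 and 11.3 CPM, with 7.37 and 6.27 in wild-type (0.83, SE 0.22), and overlaps ILK. TEDC1, a centriole protein, was at 2.03 and 2.71 against 5.86 and 4.75 CPM (1.16, SE 0.33). PCDHB17P, a pseudogene of the protocadherin beta cluster, was at 0.600 and 0.721 against 1.96 and 1.94 CPM and at 0.424 and 0.409 in wild-type (1.55, SE 0.29). BEST1, a chloride channel gene that overlaps FTH1, was at 0.913 and 0.569 against 2.53 and 2.17 CPM (1.68, SE 0.33). LINC01090 and MVP-DT had 1.39 and 1.41. MRM1, a mitochondrial rRNA methyltransferase, was at 0.626 and 0.626 against 3.30 and 1.21 CPM (1.85, SE 0.54), and at 0.94 on the log2 scale without homozygous replicate 1. Of the 15 higher genes, 10 had means under 5 CPM in both genotypes. DESeq2 also called 3 Ensembl rows without a symbol, all higher.

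The level in wild-type cells did not lie on 1 side. Wild-type was nearer to homozygous for 8 of the 15 higher genes and nearer to hemizygous for 7, and the counts were the same, 8 and 7, for the 15 lower genes. ASMTL, FAM3C2P, ZNF677, MYH14, EMC10, ZNF492 and ZNF849P are among those near homozygous. EGFR, MAOA, PLEKHA6, PCDHB17P and TAF10 are among those near hemizygous.

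Some gene groups had medians of the same sign in both replicate numbers, though the labels do not say that these numbers pair libraries. Of 77 nuclear-encoded genes of the respiratory chain, 65 were above 0 with a median of 0.14, and the medians were 0.11 and 0.13 in replicates 1 and 2. NDUFB8, a complex I subunit, was at 5.74 and 6.79 CPM in hemizygous and 7.73 and 10.5 in homozygous libraries (0.54, SE 0.23), and ATP5PO, a subunit of ATP synthase, at 27.1 and 30.7 against 32.7 and 40.6 (0.34, SE 0.19). Both were without overlap, as were 10 of the 77 above and 1 below, against 11% and 10.4% of all genes. The median was 0.03 without hemizygous replicate 1 and -0.00 without homozygous replicate 2. Of 21 mitochondrially encoded genes, 10 were above 0, with medians of -0.27 and 0.18 in replicates 1 and 2.

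Among 79 genes for cytosolic ribosomal proteins, 76 had a value above 0. Their median was 0.20, and it was 0.34 in replicate 1 and 0.08 in replicate 2. Relative to the mean of the 4 mutant libraries, their median was -0.31 in hemizygous replicate 1, 0.11 in hemizygous replicate 2, and 0.02 and 0.20 in homozygous libraries. FAU, a ribosomal protein made as a ubiquitin-like fusion, was at 98.9 and 133 against 137 and 159 CPM (0.35, SE 0.20). The genotypes overlapped for 72 of the 79, and without hemizygous replicate 1 the median was 0.00. Of 72 mitochondrial ribosomal proteins, 55 were above 0 with medians of 0.11 and 0.04, and 11 lay above without overlap.

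Glycolysis genes were high in homozygous replicate 1 alone. HK2, hexokinase 2, was at 111 and 110 CPM in hemizygous and 242 and 97.0 in homozygous libraries, SLC2A1, the glucose transporter GLUT1, at 169 and 123 against 340 and 105, and PGK1, phosphoglycerate kinase, at 434 and 457 against 896 and 418. DDIT4, an inhibitor of mTORC1 that responds to stress and low oxygen, was at 34.7 and 45.7 against 149 and 35.8 CPM. Of 17 measured glycolysis genes, 16 were above 0 in replicate 1, against 50.7% of all genes, and 4 in replicate 2, against 46.4%, with medians of 0.48 and -0.10, and without homozygous replicate 1 the median was 0.01. The part of that library in other results was not tested.

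Cholesterol synthesis, stromal and 20q11.21 genes were high in hemizygous replicate 1, and in wild-type replicate 1 too. MSMO1, a sterol methyl oxidase of the pathway, was at 272 and 133 CPM in hemizygous, 140 and 118 in homozygous and 279 and 142 in wild-type libraries, and INSIG1, which retains the sterol sensor SCAP in the endoplasmic reticulum, at 130 and 58.6, 73.1 and 55.0, and 135 and 62.4. The medians over 21 genes were -0.39 in replicate 1 and -0.09 in replicate 2. COL1A1, a chain of type I collagen, was at 324 and 213 against 190 and 179 CPM, and FBN1, fibrillin 1, at 21.9 and 8.03 against 7.51 and 7.24. Of 7 stromal markers, 6 were below 0, with medians of -0.60 and -0.15, and their summed level was 1524 and 1252.5 CPM in hemizygous, 1259.5 and 1178 in homozygous and 1386 and 1263 in wild-type libraries. Of 15 genes at 20q11.21, a segment that stem cell lines often gain, 14 were below 0, with medians of -0.35 and -0.06. Without hemizygous replicate 1 the median was 0.14 for cholesterol synthesis, -0.06 for stromal markers and 0.02 for 20q11.21.

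**Figure D4:**
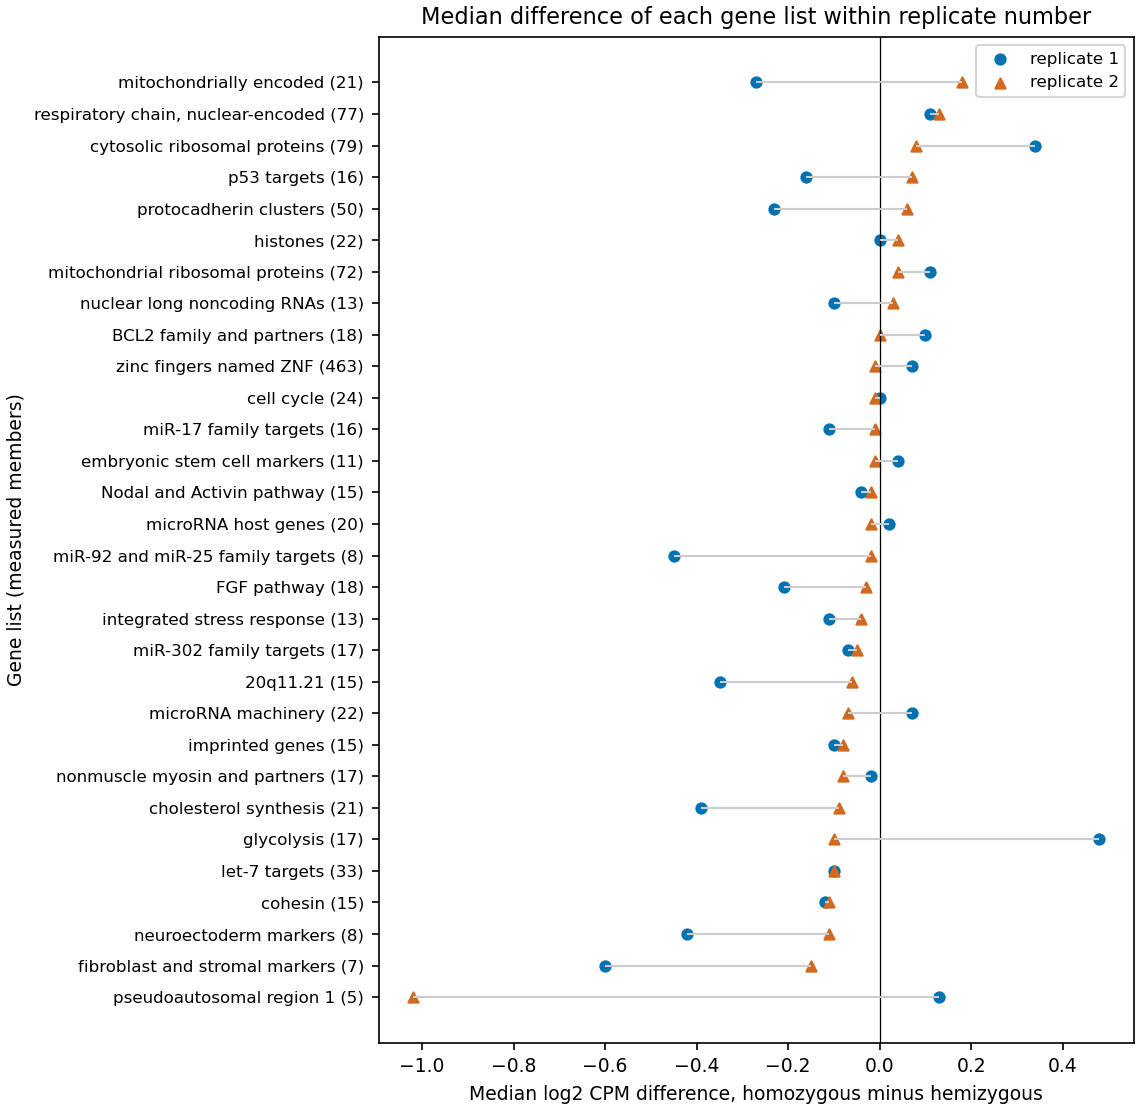
Median difference in log2 CPM between homozygous and hemizygous libraries for gene lists with at least 5 measured members (vertical axis, number measured in brackets), circles for replicate 1 and triangles for replicate 2. The 2 numbers agree closely for let-7 targets (-0.10 and -0.10) and nuclear-encoded respiratory chain genes (0.11 and 0.13) and lie far apart for glycolysis (0.48 and -0.10).

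**Figure D5:**
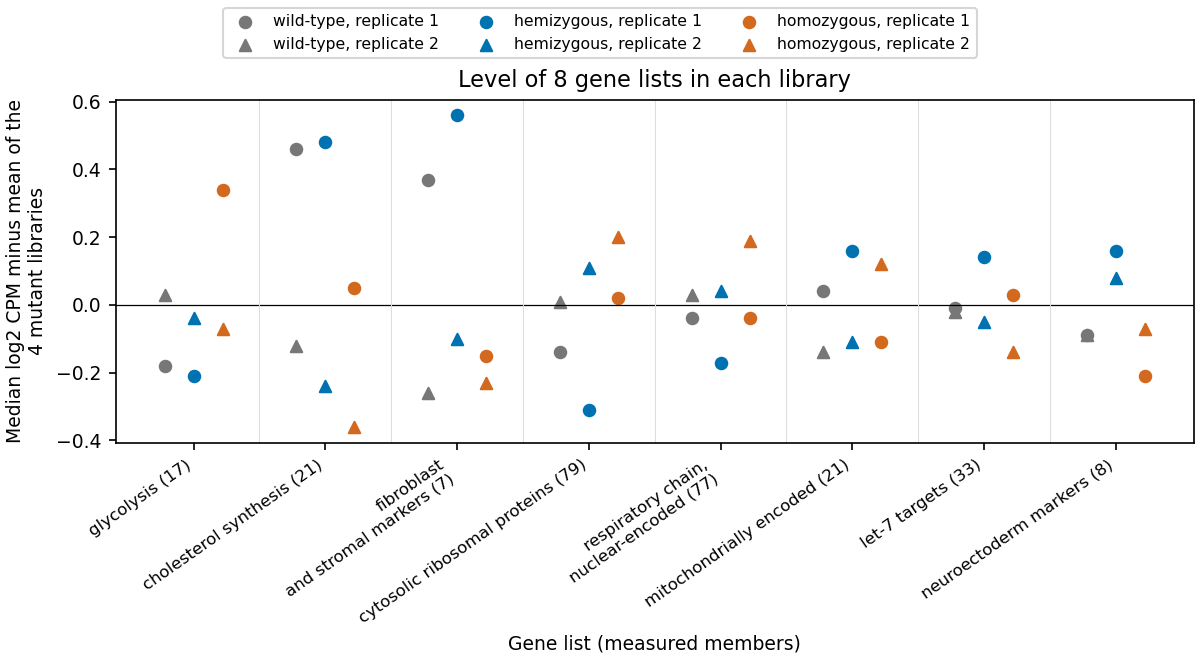
Median over list members of log2 CPM minus the member's mean over the 4 mutant libraries (vertical axis) for 8 lists in each of the 6 libraries, with colour for genotype, circles for replicate 1 and triangles for replicate 2. Glycolysis stands at 0.34 in homozygous replicate 1, cholesterol synthesis at 0.48 and 0.46 in hemizygous and wild-type replicate 1, and cytosolic ribosomal proteins at -0.31 in hemizygous replicate 1.

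Protocadherins, the clustered adhesion proteins that neurons express in combinations, are given by cluster. In the gamma cluster 11 of 22 measured genes were above 0, against 49.9% of all genes, with medians of 0.10 and 0.18 in replicates 1 and 2. Without overlap 8 of the 22 lay above the hemizygous libraries and 1 below, against 11% and 10.4% of all genes. In the alpha cluster 3 of 14 were above 0 with medians of -0.46 and -0.05, and in the beta cluster 5 of 14, with medians of -0.43 and 0.06. Genes of a cluster share exons or lie within each other's bounds, so their counts are uncertain.

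The remaining lists had medians between -0.18 and 0.02 and were described by counts only. Above 0 were 12 of 24 cell cycle genes, 8 of 16 p53 targets, 4 of 13 genes of the integrated stress response, 5 of 18 FGF pathway genes, 4 of 15 Nodal and Activin genes, 5 of 15 imprinted genes, 13 of 22 histones and 6 of 13 nuclear long noncoding RNAs. DUSP6, a phosphatase induced by FGF signalling, was at 27.3 and 15.8 CPM in hemizygous and 17.2 and 11.7 in homozygous libraries, with overlap (-0.57, SE 0.30). SNRPN, an imprinted splicing protein, was at 21.7 and 24.2 against 26.3 and 28.2 CPM without overlap (0.25, SE 0.14). No member of these lists was called by edgeR or DESeq2.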

How the data were processed

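The authors' deposited table holds raw read counts per gene for 6 iCLIP libraries, with no normalization, on the hg38 build per the submitters' processing notes. Not given in the sources used here are the aligner, the counter, the annotation and whether strand or molecular identifiers were used. Each column name matched the description of a sample, which leaves 0 columns unused. The lowest row total was 132. Names of 14748 rows matched a symbol and 162 an older symbol of the RefSeq table of GRCh38.p14, 1243 were Ensembl identifiers and 46 did not match. Rows lacking a symbol entered the tests and the counts over all rows, but the 15 genes named per direction were drawn from rows with a symbol.

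In edgeR 4.0.16 (R 4.3.3), TMM factors were computed, filterByExpr removed none of the 16199 rows, and quasi-likelihood F tests were made for the contrast homozygous minus hemizygous in a model of 3 genotype means fitted to the 6 libraries. Adjusted p-values are Benjamini-Hochberg over all rows, and a gene was called under 0.05. With 2 libraries against 2, an exact permutation test of a single value cannot go below 0.333, so none was used. Same-numbered differences are of log2 CPM with a prior count of 2. The labels do not say that a replicate number marks a shared culture or day. The alternatives tried were DESeq2 1.42.0, voom of limma 3.58.1 with and without sample quality weights, scaling by RLE, upper quartile or library size, no filter or 20 counts in 2 libraries, only the 4 libraries compared, a replicate block, and leaving out each library in turn. At 38.2 M to 52.9 M counts, counting error is large only for genes with few reads, provided that each read is a separate molecule. Whether that holds is not known, since the use of molecular identifiers is not given.

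Members and lists were chosen with earlier results of these data known, and PRTG, MYH14, REC8, MOAP1 and ASMTL prompted lists that hold them, so list counts and medians are descriptions with no test. Named genes were DICER1 and AGO2, the 15 genes per direction with the smallest p whose genotypes did not overlap, genes called by DESeq2, up to 4 members of a list with the largest difference at 5 CPM or more, 6 genes whose same-numbered differences disagreed most, and neighbours of leading genes. Other members of a list and of the chromosome 19 stretch were named after their values were seen. In a simulation of 16199 genes for this comparison, edgeR called 33% of 100 genes changed by 1, 93% of 100 changed by 2 and 20 unchanged genes. Control pull-downs were not analysed here. Some named members of lists are not reported here.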

Additional observations from a re-analysis of the deposited data

How the results depend on the processing

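edgeR called 0 genes in either direction under RLE, upper-quartile and library-size scaling, without a filter, with 20 counts in 2 libraries and with only the 4 libraries compared, and limma-voom called 0. DESeq2 called 10 (8 higher, 2 lower) and voom with sample quality weights 1, ASMTL, lower. Under a replicate block, the calls of edgeR were 1 over all 6 libraries (ASMTL, lower) and 2 over the 4 compared (1 higher, REC8, and 1 lower, ASMTL); the labels do not say that the numbers pair the samples. Leaving out a library gave 0 to 3 calls, all lower. The adjusted p of ASMTL ranged from 2.48e-30 to 0.968 and its log2 fold change from -4.54 to -4.02 over the alternatives. Of 85 genes given with values, 27 changed sign when a library was left out, with ranges of -0.35 to 0.08 for AGO2, -0.19 to 1.13 for HK2, -0.48 to 1.22 for SLC2A1, -0.09 to 1.01 for PGK1, -0.17 to 1.89 for DDIT4, -1.02 to 0.13 for INSIG1, -3.76 to 0.77 for PCGF2, -4.58 to 0.36 for ITPK1, -2.57 to 2.33 for ZNF560, -4.27 to 0.81 for COL12A1 -3.53 to 0.95 for ANXA1, -0.12 to 0.48 for POU5F1, -0.09 to 0.15 for SOX2, -0.72 to 3.32 for GTPBP6, -0.61 to 0.02 for SLC25A6, -2.47 to 1.08 for CD99, -0.15 to 0.11 for RAD21, -0.12 to 0.61 for STAG3, -0.22 to 0.06 for DDX24, -0.12 to 0.04 for ZNF730, -0.11 to 0.13 for ZNF473, -0.13 to 0.09 for MYH9, -0.35 to 0.10 for MYH10, -0.15 to 0.04 for TRIM71, -0.03 to 0.22 for HMGA1, -0.04 to 0.20 for LATS2 and -0.55 to 0.04 for LIN28B; the cause was not tested. RAD21 and MYH9 were at 0.01 each with upper-quartile factors, and ZNF473 at -0.00 with RLE factors. Of 32 list medians, 15 changed sign without hemizygous replicate 1, 11 without homozygous replicate 2, 7 without homozygous replicate 1 and 6 without hemizygous replicate 2, while wild-type libraries changed none. Depth limits genes near 5 reads in a genotype, such as REC8 and MOAP1.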

Other observations

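Some genes were high in a single library, and for these the same-numbered differences disagreed most. COL12A1, a collagen that associates with collagen fibrils, stood at 264 CPM in hemizygous replicate 1 and 7.84 in replicate 2, at 16.0 and 11.4 in homozygous and at 205 and 10.9 in wild-type libraries, so replicate 1 of 2 genotypes was high. ANXA1, annexin A1, followed it, at 25.8 and 1.16, 2.67 and 1.80, and 34.1 and 2.05 CPM. PCGF2, a Polycomb subunit, was high in hemizygous replicate 1 alone, at 18.0 CPM against 0.614 to 1.90 in the other 5 libraries. ITPK1 was high in hemizygous replicate 2 alone.

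ZNF560, a zinc finger gene, stood at 0.730 and 21.9 CPM in hemizygous, 3.68 and 3.69 in homozygous and 19.2 and 18.1 in wild-type libraries, so the homozygous libraries agreed closely while the hemizygous ones did not. SLC25A24, a mitochondrial carrier of ATP and magnesium, was at 14.4 and 6.21 CPM in hemizygous, 5.44 and 0.123 in homozygous and 0.231 and 0.154 in wild-type libraries.

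Among genes of at least 5 CPM, the 818 genes of chromosome 19 had a median difference of 0.23 in replicate 1 and -0.02 in replicate 2, and the 417 genes of chromosome 4 had -0.14 and -0.04. Chromosomes 16 and 13 had 0.12 and -0.13 in replicate 1 and -0.01 and -0.02 in replicate 2. Chromosome medians thus differed mainly in replicate 1. Whether whole chromosomes differ between the genotypes was not tested.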
